A study of Homo sapiens with 6 samples.

Results

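The genes described here are 10 receptors of the myeloid cell surface: LILRB1, LILRB2, LILRB3, LILRB4, LILRA2, LAIR1, SIRPA, SIRPB1, PILRA and CD300A. Membership goes by gene symbol. All 10 had a row among the 23227 genes of the count table, and all 10 passed the filter on low counts that left 14635 genes for testing. The libraries came from MV4-11, an established human acute myeloid leukaemia line of myelomonocytic type with a KMT2A-AFF1 fusion gene and a FLT3 internal tandem duplication. In 3 libraries the glycolytic enzyme gene ENO1 had been knocked down with a short hairpin RNA, and the column names carry the name of 1 hairpin. The other 3 were controls, described as untreated and titled NC, with no word on a control hairpin. All 6 were labelled wild type in genotype and are of 1 cell line. Nothing in the labels ties the libraries of 1 group to separate cultures, so p-values cover only library-to-library spread, which may be technical.

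These receptors are best known as brakes on myeloid cells. Most carry immunoreceptor tyrosine-based inhibitory motifs (ITIMs) in their tails, which recruit the phosphatases SHP-1, SHP-2 and SHIP-1 once Src family kinases have phosphorylated them. Their families also hold activating members with short tails, which signal through the adaptors DAP12 (TYROBP) or FcRγ (FCER1G) and the kinase SYK. SIRPB1 and LILRA2 are of that activating kind, so the name inhibitory covers the other 8 genes only.

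ENO1 itself stood at 103, 101 and 102 CPM in the knockdown libraries, against 3240, 3262 and 3285 CPM in the control libraries, where CPM stands for counts scaled to a common TMM-adjusted library size. The log2 fold change was -5.00 (SE 0.030, edgeR adjusted p = 5.98e-37), where SE is an approximate standard error derived from the test statistic. Library totals ran from 20044602 to 21670135 counts in the knockdown and from 24778469 to 26373960 in the control. Mitochondrially encoded genes took 9.27 to 9.69% of the counts in the knockdown and 6.69 to 6.88% in the control. Knockdown replicate 3 and control replicate 2 stood somewhat apart from the others of their groups. In chi-square tests of counts over genes, knockdown replicate 3 reached 4.03 and 4.20 per degree of freedom against its group, where the other knockdown pair had 2.29. Control replicate 2 reached 2.83 and 3.13, where the other control pair had 2.09.

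The myelomonocytic label was checked with 12 markers, of which 11 were tested. Their summed level was 2678 to 2702 CPM in the knockdown and 2578 to 2609 CPM in the control. That near-equal sum hides large differences: all 11 passed at an edgeR adjusted p below 0.05, 7 higher and 4 lower. FLT3, CD4, PTPRC, FUT4, CSF1R, CD33 and ITGAM rose. FLT3, the most abundant, had 1018 ± 29.5 CPM in the knockdown, against 808 ± 10.2 CPM in the control (SD, n = 3 each). SPI1, which encodes PU.1, fell to 79.5% of control. LYZ, which encodes lysozyme, fell to 51.4 ± 1.01 CPM in the knockdown, against 274 ± 3.43 CPM in the control (SD, n = 3 each). MPO, the myeloperoxidase gene, fell to 3.66 ± 0.278 CPM in the knockdown, against 22.4 ± 1.19 CPM in the control, and the myeloid transcription factor gene CEBPA to 65.2% of control. Antisense genes overlap 43.4% of the exonic bases of CEBPA and 34.0% of those of LYZ. Without a known strand setting, reads from these antisense genes cannot be told apart from those of CEBPA and LYZ. ITGAM, the CD11b integrin gene, rose to 41.9 ± 0.206 CPM in the knockdown, against 11.9 ± 0.151 CPM in the control (SD, n = 3 each). CD14, the monocyte coreceptor for lipopolysaccharide, was near 0, at 0.186 to 0.836 CPM in the knockdown and 0.205 to 0.848 CPM in the control. Of 10 T and NK cell markers 7 were analysed here, with sums of 99.6 to 102.6 CPM in the knockdown and 89.2 to 98.0 CPM in the control, nearly all from NKG7, NCAM1 and IL7R. The CD3 subunit genes CD3E and CD3G had at most 3 counts in any library, and the T cell receptor chain gene TRBC1 was not among those analysed. B and plasma cell markers summed to 6.31 to 7.16 CPM in the knockdown and 3.94 to 5.04 CPM in the control (5 of 7 analysed), with MS4A1 at 0 in 5 libraries. PAX5 rose to 1.37 ± 0.514 CPM in the knockdown, against 0.172 ± 0.0942 CPM in the control, and CD79A to 0.833 ± 0.221 CPM in the knockdown, against 0.257 ± 0.174 CPM in the control (SD, n = 3 each). Erythroid and megakaryocyte markers summed to 8.94 to 11.4 CPM in the knockdown and 4.24 to 5.37 CPM in the control (5 of 10 analysed), with GATA1 at 0 to 4 counts. Most of that difference came from the integrin gene ITGB3, which rose to 5.06 ± 0.682 CPM in the knockdown, against 0.470 ± 0.0393 CPM in the control (SD, n = 3 each). Of the 50-base stretches in the annotated transcripts of ITGB3, 50.7% also occur in the overlapping gene AC068234.1, so its count is uncertain. KLF1, which was not tested, went the other way, with 2, 1 and 2 counts in the knockdown, against 13, 3 and 7 in the control. Epithelial and fibroblast markers summed to 62.9 to 67.3 CPM in the knockdown and 28.9 to 32.1 CPM in the control (7 of 9 analysed), from KRT8, KRT18 and TAGLN, with EPCAM at 0 in 5 libraries. KRT8 shares 10.1% and KRT18 14.3% of the 50-base stretches with other genes, so the counts of both are uncertain. The part of these markers and of the mitochondrial share in the results below was not tested. In bulk RNA, fewer cells that express a gene and less RNA per cell cannot be told apart.

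The LILR genes arose by duplication on chromosome 19, and short stretches of some of their promoters are similar. Such stretches are printed here for LILRA1, LILRB1 and LILRB2, with the less similar LILRA5 beside them. LILRA5 rose, LILRA1 fell, and LILRB1 and LILRB2 did not pass the test. The stretches come from the RefSeq promoter table (GRCh38.p14), run 5′ to 3′ on the gene's strand and cover bases -140 to -76 before an annotated start. For each gene, the start was chosen whose 250 bases before it end in TTTCCCT or CTTCCCT. The starts were thus picked by shared letters, and their likeness describes the printed stretches only. None of them touches an annotated exon. They lie at chr19:54313242-54313306 (minus strand, LILRA5), chr19:54593492-54593556 (plus, LILRA1), chr19:54630344-54630408 (plus, LILRB1) and chr19:54281186-54281250 (minus, LILRB2). The LILRB1 stretch is intronic to that gene's longest transcript, and the other 3 lie upstream of the annotated gene. Capitals mark the run GGGGAAGT, whose GGAA core is that of ETS factors such as PU.1. The LILRA5 stretch lacks the full run but holds GGGAAGT, with the same GGAA core.
LILRA5: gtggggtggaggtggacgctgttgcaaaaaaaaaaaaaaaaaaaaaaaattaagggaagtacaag
LILRA1: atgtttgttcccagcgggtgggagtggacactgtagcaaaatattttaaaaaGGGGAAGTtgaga
LILRB1: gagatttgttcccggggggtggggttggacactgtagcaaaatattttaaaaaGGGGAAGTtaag
LILRB2: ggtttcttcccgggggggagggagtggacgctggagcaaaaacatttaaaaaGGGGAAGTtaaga
In global alignment the LILRA1 and LILRB1 stretches were 86.4% identical, LILRA1 and LILRB2 80.3%, and LILRB1 and LILRB2 80.6%. The LILRA5 stretch was 50.6 to 55.1% identical to the other 3. Searched on both strands in the 250 bases before each start, GGGGAAGT was found in 561 of 35116 promoters (1.6%). A promoter was matched by symbol for 7 of the 10 receptors, and 3 of them held the run (LILRB1, LILRB2 and CD300A). These 7 receptors had 14 promoters, and a receptor was counted if any of its promoters held the run. That count is of genes and cannot be set against the 1.6%, which is a share of promoters. The run was picked after the alignment was seen, and its presence is a description of the letters, not of a bound site.

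Among the 10 receptors, 3 rose with the knockdown (LILRA2, LAIR1 and CD300A), 3 fell (SIRPA, SIRPB1 and PILRA) and 4 did not pass the test (LILRB1, LILRB2, LILRB3 and LILRB4). The call was an edgeR quasi-likelihood adjusted p below 0.05, two-sided and adjusted over all 14635 genes. Among all genes tested 29.4% were called higher in the knockdown and 30.5% lower, so that a count of 3 in each direction lies near the background. The median log2 fold change of the 10 receptors was 0.06, against 0.0043 over all genes tested. None of the 10 reached a 2-fold difference. The libraries of the groups did not overlap for 6 of the 10, against 64.3% of all genes.

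**Figure D1:**
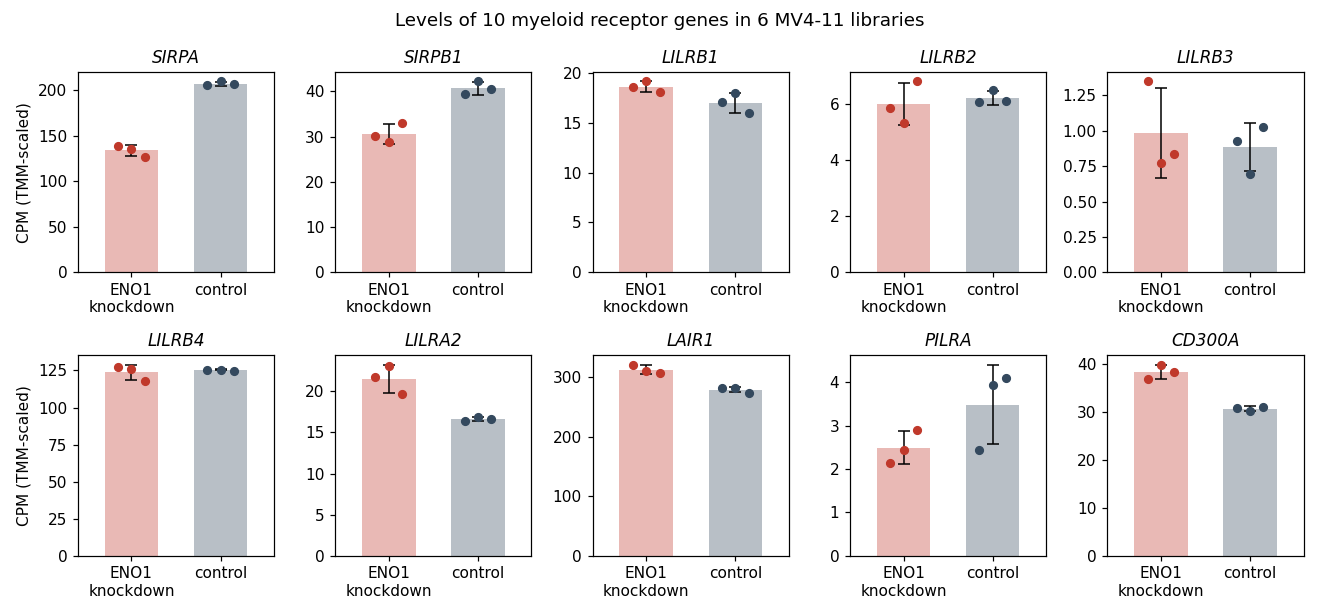
Level of each of the 10 receptor genes in CPM on TMM-scaled library sizes (y axis, from 0, own scale per panel) in the ENO1 knockdown and control libraries. Points are the 3 libraries of a group, bars the mean and error bars the SD. SIRPA and SIRPB1 were lower in every knockdown library and LILRA2, LAIR1 and CD300A higher. LILRB1, which did not pass, lay just above the control libraries, while PILRA, LILRB2, LILRB3 and LILRB4 overlapped.

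The clearest difference was in SIRPA, the receptor for the "don't eat me" signal CD47 on other cells (ENSG00000198053, GRCh38 chromosome 20, 1894167 to 1940592, plus strand). Its level was 139, 136 and 127 CPM in the knockdown libraries, against 206, 210 and 206 CPM in the control libraries. Every knockdown library lay far below every control library. The mean fell to 134 ± 6.00 CPM in the knockdown, against 207 ± 2.15 CPM in the control (SD, n = 3 each), which is 64.6% of the control level. The log2 fold change was -0.63 (SE 0.036, edgeR adjusted p = 1.23e-14). SIRPB1, its activating relative that pairs with DAP12 (chromosome 20, 1563521 to 1620061, minus strand), also fell. It had 30.1, 28.8 and 33.0 CPM in the knockdown, against 39.4, 42.2 and 40.6 CPM in the control, with no overlap between the groups. The fitted level was 75.1% of control, with a log2 fold change of -0.41 (SE 0.060, edgeR adjusted p = 1.25e-06).

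SIRPA and SIRPB1 resemble each other closely enough that their counts are uncertain. Of the 50-base stretches in the annotated transcripts of SIRPA 12% also occur in transcripts of other genes, first among them SIRPB1, and for SIRPB1 the share is 20.1%. How reads that match both were counted is not given in the sources used here. SIRPB1 also shares exons with the overlapping gene AL049634.2, which had 8, 9 and 4 counts in the knockdown and 4, 6 and 5 in the control, against 634 to 1030 counts per library for SIRPB1. The antisense gene AL117335.1 overlaps SIRPA and had 16, 25 and 25 counts in the knockdown and 32, 58 and 57 in the control, and without a known strand setting its reads cannot be told apart from those of SIRPA, which had 2584 or more counts in each library.

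The third SIRP gene that passed was not one of the 10 receptors. SIRPB2 had 2.42, 2.50 and 2.36 CPM in the knockdown, against 15.3, 14.2 and 16.1 CPM in the control. Its log2 fold change of -2.65 (SE 0.12, edgeR adjusted p = 1.48e-16) was the largest fall among the tested family relatives. SIRPG, a CD47 receptor mainly of T cells, was at 4.18 ± 0.649 CPM in the knockdown and 3.35 ± 0.303 CPM in the control (SD, n = 3 each) and did not pass (edgeR adjusted p = 0.102). SIRPD, which shares 20.9% of its 50-base stretches with other genes and had 1.08 ± 0.315 CPM in the knockdown and 1.06 ± 0.219 CPM in the control (SD, n = 3 each), did not pass either (edgeR adjusted p = 0.947). CD47 itself rose to 84.6 ± 4.53 CPM in the knockdown, against 68.5 ± 1.94 CPM in the control (SD, n = 3 each), a log2 fold change of 0.30 (edgeR adjusted p = 2.26e-06). SIRPA and its ligand moved in opposite directions in these libraries.

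Inhibitory LILRB receptors, of which LILRB1 and LILRB2 bind MHC class I, did not pass the test. LILRB4, a leukaemia-associated receptor of monocytic cells (chromosome 19, 54643889 to 54670359, plus strand), was the most abundant of them. It had 128, 126 and 118 CPM in the knockdown, against 126, 126 and 125 CPM in the control, and the groups overlapped. Its log2 fold change was -0.016 (SE 0.037, edgeR adjusted p = 0.727), and its sign turned under other scalings of the libraries. LILRB1 (chromosome 19, 54617158 to 54637528, plus strand) had 18.6, 19.1 and 18.1 CPM in the knockdown, against 17.0, 18.0 and 16.0 CPM in the control. The lowest knockdown library lay just above the highest control library. Its log2 fold change was 0.13 (SE 0.078, edgeR adjusted p = 0.145), and LILRB1 passed when plain library sizes replaced TMM (edgeR adjusted p = 0.041).

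The other inhibitory LILRB genes were scarcer. LILRB2 had 5.86, 5.31 and 6.79 CPM in the knockdown, against 6.05, 6.48 and 6.07 CPM in the control, with the control libraries inside the knockdown range (log2 fold change -0.05, SE 0.13, edgeR adjusted p = 0.740). LILRB3 had 29, 17 and 17 counts in the knockdown, against 24, 17 and 25 counts in the control. At that depth its log2 fold change of 0.16 had an SE of 0.34 (edgeR adjusted p = 0.707), and a difference of that size was not detectable. Part of the sequence of these genes is shared: 27.0% of the 50-base stretches of LILRB3 occur in other genes, first LILRA6, and 17.6% for LILRB1, 14.1% for LILRB2 and 14.2% for LILRB4. The counts of these LILRB genes are therefore uncertain. LILRA6 had between 0 and 7 counts per library and LILRB5 between 0 and 3, and neither was tested.

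LILRA2, an activating receptor that pairs with FcRγ (chromosome 19, 54572920 to 54590287, plus strand), rose. It had 21.8, 23.1 and 19.7 CPM in the knockdown, against 16.4, 16.9 and 16.6 CPM in the control, and every knockdown library was above every control library. The log2 fold change was 0.38 (SE 0.078, edgeR adjusted p = 0.000157). LILRA2 shares 18.1% of its 50-base stretches with other genes, so its count is uncertain too. The tested LILRA relatives went both ways. LILRA5, which also signals through FcRγ, rose to 4.14, 4.49 and 3.44 CPM in the knockdown, against 1.12, 1.07 and 0.821 CPM in the control, a log2 fold change of 2.00 (SE 0.22, edgeR adjusted p = 1.09e-08). The locus AC245884.11, which shares sequence with LILRA4 and LILRA5, had 13, 9 and 11 counts in the knockdown and 0 in each control library. LILRA1 fell to 6.88, 9.67 and 7.08 CPM in the knockdown, against 12.1, 12.01 and 12.1 CPM in the control, a log2 fold change of -0.61 (SE 0.11, edgeR adjusted p = 4.24e-05). LILRA4, known from plasmacytoid dendritic cells, had 9, 10 and 10 counts in the knockdown and 8, 6 and 8 in the control and was not tested.

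LAIR1, an inhibitory receptor for collagens, had the highest CPM of the 10 (ENSG00000167613, chromosome 19, 54351384 to 54370558, minus strand). It had 321, 310 and 307 CPM in the knockdown, against 282, 281 and 274 CPM in the control. The groups did not overlap, but the difference was small: the log2 fold change was 0.16 (SE 0.030, edgeR adjusted p = 3.96e-05), or 112% of the control level. The secreted relative LAIR2, with 26.4% of its 50-base stretches shared, had 1.63 ± 0.456 CPM in the knockdown and 1.33 ± 0.376 CPM in the control (SD, n = 3 each) and did not pass (edgeR adjusted p = 0.386).

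CD300A, an ITIM receptor for phosphatidylserine and phosphatidylethanolamine (ENSG00000167851, chromosome 17, 74466399 to 74484796, plus strand), rose as well. It had 36.8, 39.8 and 38.4 CPM in the knockdown, against 30.8, 30.1 and 31.0 CPM in the control, with no overlap. The log2 fold change was 0.32 (SE 0.057, edgeR adjusted p = 2.16e-05). Only 0.869% of its 50-base stretches are shared with other genes, the lowest share among the 10. Its neighbour CD300C, an activating receptor, rose further, to 36.1, 36.3 and 30.9 CPM in the knockdown, against 16.9, 15.9 and 16.2 CPM in the control (log2 fold change 1.07, SE 0.073, edgeR adjusted p = 6.61e-13). The inhibitory CD300LF fell to 26.4 ± 1.34 CPM in the knockdown, against 33.3 ± 1.35 CPM in the control (SD, n = 3 each; log2 fold change -0.33, edgeR adjusted p = 5.28e-05). The activating CD300LB rose, with 3.63, 4.22 and 2.66 CPM in the knockdown and 2.66, 1.76 and 2.87 CPM in the control, and its groups overlapped (log2 fold change 0.53, edgeR adjusted p = 0.0311). That call was lost without control replicate 2 (adjusted p = 0.181), knockdown replicate 1 (0.0749) or knockdown replicate 2 (0.192), with DESeq2 (0.136) and with the replicate block (0.052).

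PILRA, an inhibitory receptor for sialylated O-glycoproteins (chromosome 7, 100367530 to 100400099, plus strand), was scarce and its call was weak. It had 2.14, 2.45 and 2.90 CPM in the knockdown, against 2.43, 3.94 and 4.10 CPM in the control. Control replicate 1 lay within the knockdown range. The log2 fold change was -0.48 (SE 0.21, edgeR adjusted p = 0.0472), and the call was lost under 9 of 14 alternatives. Without control replicate 3 the adjusted p was 0.220 and without control replicate 2 it was 0.177. It was 0.160 without knockdown replicate 1 and 0.0999 without knockdown replicate 2. PILRB, the activating partner next to it, was at 12.8 ± 0.915 CPM in the knockdown and 13.6 ± 0.643 CPM in the control (SD, n = 3 each) and did not pass (edgeR adjusted p = 0.376). PILRB shares 46.6% of its 50-base stretches with other genes, mostly a read-through transcript, and is uncertain.

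**Figure D2:**
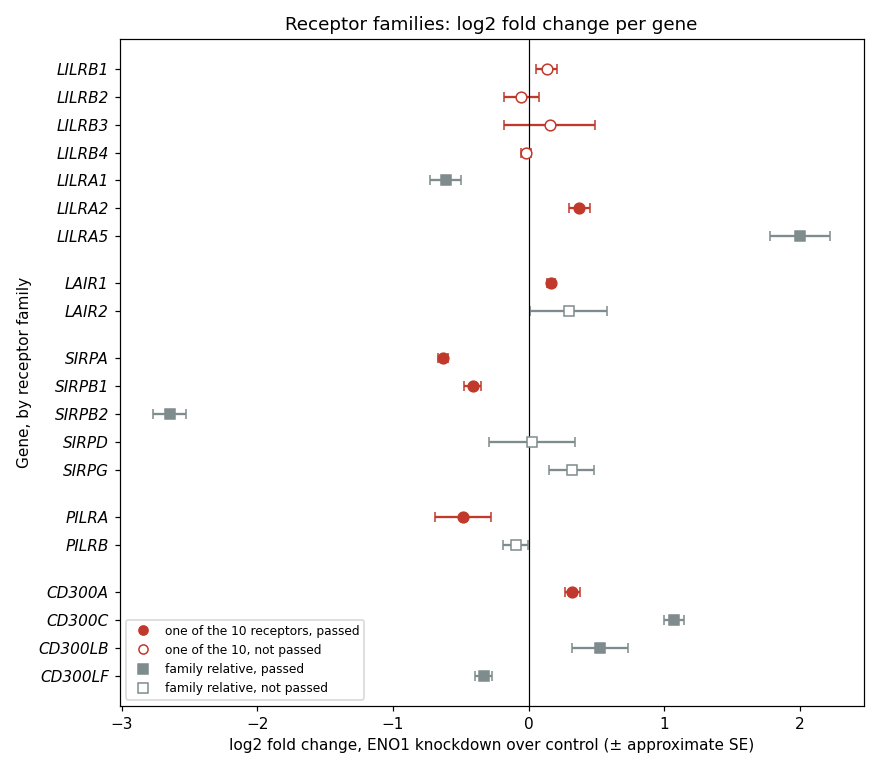
Log2 fold change of ENO1 knockdown over control (x axis, with SE as bars) for the 10 receptors (circles) and their tested family relatives (squares), one gene per row grouped by family. Filled symbols passed at an edgeR adjusted p below 0.05. SIRPB2 at -2.65 and LILRA5 at 2.00 lie furthest out, and the 4 LILRB genes lie around 0.

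Levels of different genes were compared per kilobase of annotated exon. In the control libraries the order was SIRPA (40.9 ± 0.423 CPM per kilobase), LAIR1 (34.6 ± 0.550), LILRB4 (19.8 ± 0.0592), CD300A (11.3 ± 0.180), SIRPB1 (6.69 ± 0.233), LILRB1 (3.39 ± 0.200), LILRA2 (3.11 ± 0.0506), PILRA (1.74 ± 0.460), LILRB2 (1.63 ± 0.0628) and LILRB3 (0.236 ± 0.0451), as mean ± SD of 3 libraries. Of these neighbours, PILRA and LILRB2 overlapped. In the knockdown libraries LAIR1 came first at 38.7 ± 0.890 CPM per kilobase and SIRPA second at 26.4 ± 1.18, with no overlap between them. LILRA2 stood at 4.03 ± 0.322 CPM per kilobase in the knockdown and LILRB1 at 3.72 ± 0.105, and these overlapped. Exon lengths are unions over all annotated transcripts and run from 2006 bases for PILRA to 8071 for LAIR1, so the order depends on which transcripts these cells make.

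Within a library, the ratio of an inhibitory receptor to an activating relative does not depend on library scaling. The log2 ratio of SIRPA to SIRPB1 counts was 2.20, 2.24 and 1.94 in the knockdown libraries, against 2.38, 2.31 and 2.35 in the control libraries. The groups did not overlap, and the difference of -0.22 had an exact two-sided permutation p of 0.10, the smallest that 3 against 3 libraries allow. Without knockdown replicate 3 the difference was -0.13. The log2 ratio of LILRB1 to LILRA2 was -0.22, -0.27 and -0.12 in the knockdown, against 0.06, 0.09 and -0.06 in the control, a difference of -0.24 with no overlap (exact permutation p = 0.10). The log2 ratio of PILRA to PILRB was -2.44, -2.42 and -2.19 in the knockdown, against -2.40, -1.84 and -1.75 in the control, and these groups overlapped (difference -0.35, exact permutation p = 0.20). Adjusted over these 3 pairs by Benjamini-Hochberg the exact p-values were 0.15, 0.15 and 0.20.

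**Figure D3:**
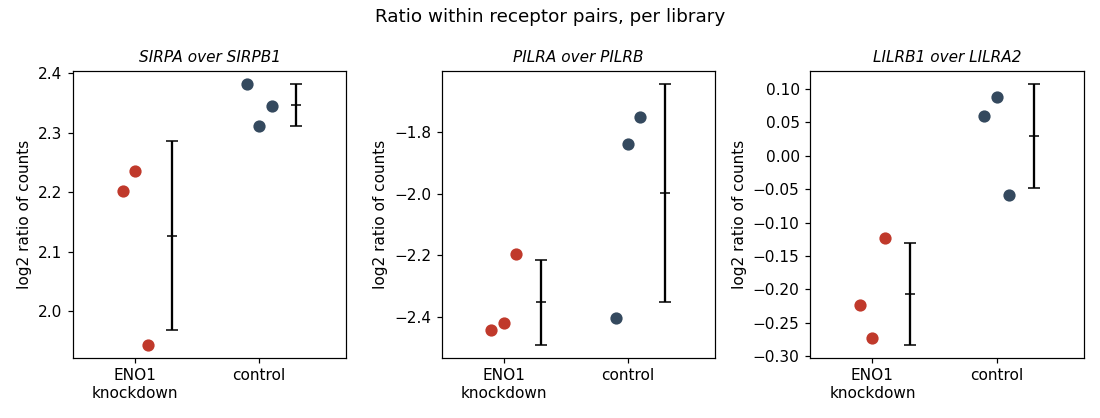
Log2 ratio of counts of an inhibitory receptor to an activating relative in each library (y axis, own scale per panel, not from 0), with ENO1 knockdown and control on the x axis. Points are single libraries, and the black mark with bars is the mean ± SD of 3. The knockdown libraries lie below the control libraries for SIRPA over SIRPB1 and LILRB1 over LILRA2, and overlap them for PILRA over PILRB.

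Across all family relatives, 16 were listed, 15 had a row and 10 were tested, of which 3 rose and 3 fell, again beside 29.4% and 30.5% of all genes. Of 25 other inhibitory receptors 17 were tested, and 7 rose and 5 fell (70.6%, beside 59.9% of all genes), and the list median was 0.23 on the log2 scale. The 7 include SIGLEC5, whose groups overlapped and whose 50-base stretches all occur in other annotated genes, so its count is uncertain. CD33 (Siglec-3), the target of gemtuzumab ozogamicin, rose to 148 ± 3.09 CPM in the knockdown, against 126 ± 4.37 CPM in the control (SD, n = 3 each; log2 fold change 0.23, edgeR adjusted p = 5.05e-06). CD72, a receptor best known from B cells, and SIGLEC6 rose by 1.22 and 1.76 on the log2 scale, and SIGLEC6 had only 4.36 ± 0.310 CPM in the knockdown and 1.30 ± 0.499 CPM in the control (SD, n = 3 each). PECAM1, an adhesion receptor with ITIMs, fell to 66.4 ± 1.71 CPM in the knockdown, against 93.9 ± 0.726 CPM in the control (SD, n = 3 each). CD101 and VSIR, which encodes VISTA, had log2 fold changes of -1.04 and -0.39 and both passed. Antisense genes overlap 19.5% of the exonic bases of CD72, 16.5% of those of SIGLEC6 and 10.3% of those of CD101. Without a known strand setting, reads of the antisense genes cannot be told apart from those of CD72, SIGLEC6 and CD101.

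Of 20 listed activating receptors that signal through ITAM adaptors 10 were tested, and 4 rose and 4 fell (80.0%, beside 59.9% of all genes), and the list median was 0.28 on the log2 scale. TREM1 fell to 1.16, 1.23 and 2.85 CPM in the knockdown, against 7.91, 7.87 and 7.92 CPM in the control, and knockdown replicate 3 stood apart from the other knockdown libraries. TREM2, which pairs with DAP12, rose to 30.8 ± 0.855 CPM in the knockdown, against 16.7 ± 0.735 CPM in the control (SD, n = 3 each). FCGR1A, the high-affinity IgG receptor, had a log2 fold change of -0.91, though 55.4% of its 50-base stretches are shared with its copies. SIGLEC14 rose by 0.69 on the log2 scale, with 33.1% of its 50-base stretches shared, mainly with SIGLEC5. SIGLEC15 rose by 2.36 and was scarce, with 18, 14 and 22 counts in the knockdown, against 2, 2 and 8 in the control, and its log2 fold change was 3.33 without control replicate 3.

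Genes through which these receptors signal were tested in full. All 30 listed signalling partners were tested, and 17 rose and 9 fell (86.7%, beside 59.9% of all genes), and the list median was 0.30 on the log2 scale. Both adaptors of the activating receptors rose. FCER1G had 82.1, 78.8 and 89.5 CPM in the knockdown, against 30.8, 32.4 and 26.8 CPM in the control (log2 fold change 1.48, SE 0.063, edgeR adjusted p = 3.24e-15). TYROBP had 87.9, 86.7 and 77.3 CPM in the knockdown, against 48.4, 51.0 and 51.9 CPM in the control (log2 fold change 0.74, SE 0.051, edgeR adjusted p = 1.02e-12). SYK, the kinase they recruit, rose to 178 ± 3.62 CPM in the knockdown, against 112 ± 3.88 CPM in the control (SD, n = 3 each), and the phosphatase gene PTPRC (CD45) by 1.10 on the log2 scale.

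The phosphatases that ITIMs recruit did not move together. PTPN6, which encodes SHP-1, rose to 773 ± 28.0 CPM in the knockdown, against 579 ± 8.01 CPM in the control (log2 fold change 0.42, SD, n = 3 each, edgeR adjusted p = 1.16e-12). INPP5D, which encodes SHIP-1, rose by 0.30 on the log2 scale (edgeR adjusted p = 7.96e-10). PTPN11, which encodes SHP-2, fell to 184 ± 6.59 CPM in the knockdown, against 244 ± 4.13 CPM in the control (log2 fold change -0.41, SD, n = 3 each, edgeR adjusted p = 2.99e-11). The Src family kinase FGR had a log2 fold change of -1.84 and PIK3AP1, the adaptor BCAP, of -0.58, and both passed.

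Of 27 listed ligands 14 were tested, and 12 rose and 1 fell (92.9%, beside 59.9% of all genes), and the list median was 0.50 on the log2 scale. HLA-B, HLA-C and HLA-E, class I genes of the kind that LILRB1 and LILRB2 bind, rose by 0.50, 0.53 and 0.50 on the log2 scale. HLA-B had 379, 370 and 354 CPM in the knockdown, against 261, 259 and 260 CPM in the control. HLA-C and an antisense gene overlap 18.9% of the exonic bases of HLA-B, so part of its count is uncertain. S100A9, a calcium-binding alarmin, rose to 10.9 ± 1.44 CPM in the knockdown, against 2.79 ± 0.143 CPM in the control (SD, n = 3 each). NPDC1, a ligand of PILRA, was the one ligand that fell, to 17.7 ± 1.78 CPM in the knockdown, against 39.0 ± 1.23 CPM in the control (SD, n = 3 each; edgeR adjusted p = 8.24e-14).

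**Figure D4:**
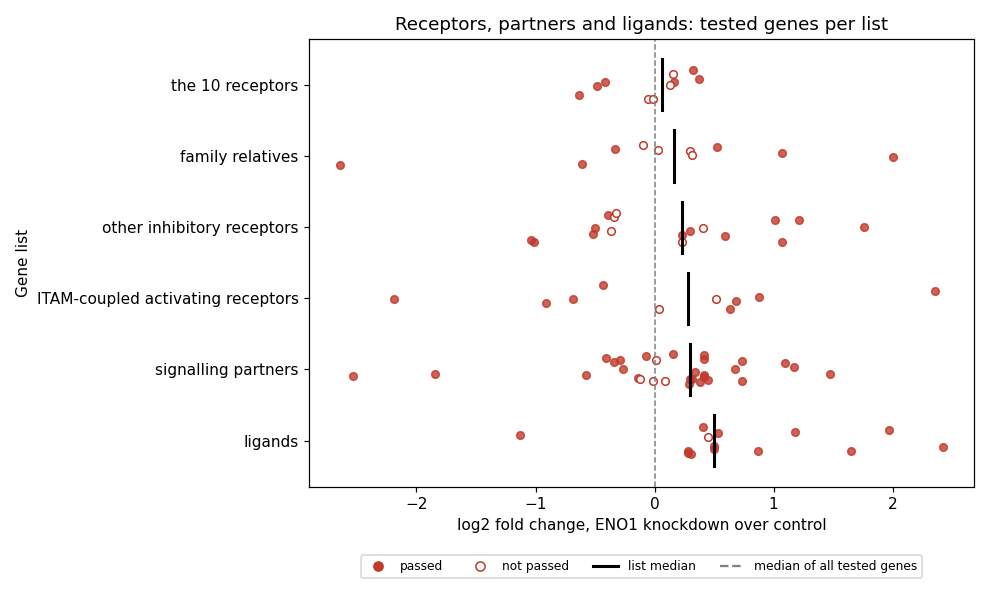
Log2 fold change of ENO1 knockdown over control (x axis) for every tested gene of the 10 receptors and 5 related lists (rows, vertical scatter is for legibility). Filled points passed at an edgeR adjusted p below 0.05, black ticks are list medians and the dashed line is the median of all tested genes. The medians run from 0.06 for the 10 receptors to 0.50 for the ligands.

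Genes that neighbour the LILR cluster on chromosome 19 went both ways. Around the LILR genes, from 200 kb before the first (54216278) to 200 kb after the last (54670359), 24 genes with a symbol other than the 10 receptors had a row, and 19 were tested. Of these 7 rose and 6 fell (68.4%, beside 59.9% of all genes), and their median log2 fold change was 0.17. The count includes LILR and LAIR relatives already described. Receptor and non-receptor genes stood on both sides. Among the non-receptor genes PRPF31, LENG8, RPS9 and MBOAT7 fell, with log2 fold changes of -0.39, -0.35, -0.20 and -0.29, and TTYH1, TFPT, TSEN34, LENG9, CDC42EP5 and LENG1 rose. Antisense genes overlap 32.0% of the exonic bases of PRPF31, 34.1% of those of TFPT and 35.5% of those of LENG1. Without a known strand setting, reads of the antisense genes cannot be told apart from those of PRPF31, TFPT and LENG1. Among the receptors LILRA5 rose, and LILRA1 and OSCAR fell. The groups overlapped for TSEN34, LENG9, CDC42EP5 and LENG1 (edgeR adjusted p = 0.0186, 0.0312, 0.0400 and 0.0474), and CDC42EP5 had 6 to 25 counts per library. Of the 19 tested genes, 10 had groups that did not overlap, against 64.3% of all genes. The count of genes that rose was 4 without control replicate 2 or without control replicate 3, and 3 without knockdown replicate 1.

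The genes most like LAIR1 in pattern were TDRD3, CDC5L and SUN1, with a root mean square distance of 0.00801, 0.0116 and 0.0136 between mean-centred log2 CPM over the 6 libraries. For SIRPA they were FLNA, BLMH and ATF5, at 0.0189, 0.0215 and 0.0242. These were the nearest of 8922 other tested genes with a symbol and a mean of at least 10 CPM. FLNA, which encodes filamin A, averaged 1266 ± 45.0 CPM in the knockdown and 1946 ± 13.7 CPM in the control (SD, n = 3 each).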

How the data were processed

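RNA sequencing of 6 MV4-11 libraries was analysed. Per the labels' protocols, RNA was extracted with Trizol and the TruSeq RNA kit from Illumina made the libraries. The submitters' processing notes name HISAT2 2.0.5 and hg38. The counter, annotation and strand setting were not given in the sources used here. Raw whole-number counts per Ensembl gene were deposited by the authors, without normalization. Columns were matched to samples by the group and replicate number in their names. Of 23227 genes 17862 were given a symbol.

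The main test was edgeR 4.0.16 under R 4.3.3 (TMM, filterByExpr, robust quasi-likelihood fit, two-sided, Benjamini-Hochberg over 14635 genes, threshold 0.05). Each SE was taken as the log2 fold change over the root of the F statistic. limma 3.58.1 and DESeq2 1.42.0 served as alternatives, with other scalings and filters, a replicate block, each library left out and a threshold of 0.01. The procedure was tested on simulated data in which few genes differed. That test does not cover a comparison in which 59.9% of genes are called. Positions, exon unions and the share of 50-base stretches found in other genes came from GENCODE 29 (GRCh38). Counts of genes with a share above 10% are uncertain, whether or not the text repeats it at each gene. Ratios used a prior count of 0.5.

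The members and lists were chosen with earlier results of these data known. Named genes were the 10 receptors, ENO1, a set of direct partners, and, per list, up to 5 genes of smallest adjusted p, plus the 3 nearest in pattern to the member with the highest CPM and to the one with the largest log2 fold change. SIRPD, LAIR2, CD300LB, LILRA4, LILRA6, LILRB5, SIGLEC5, OSCAR, the other chromosome 19 genes that rose and the marker genes were named beside it, after their values were seen. Lists were described by counts and medians, and no set test was run.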

Additional observations from a re-analysis of the deposited data

How the results depend on the processing

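The alternatives comprised other scalings, testing every gene, keeping only genes at 5 CPM or more in 3 libraries, DESeq2, limma-voom, a replicate block, leaving out each library, a threshold of 0.01 and, added after the data were seen, setting aside both libraries that stood apart. SIRPA, SIRPB1, LAIR1, LILRA2 and CD300A kept their direction and passed under every alternative run at 0.05, with a highest adjusted p of 4.03e-11, 4.46e-05, 0.00125, 0.00283 and 0.000428. LILRB4, which did not pass in any, turned to 0.022 with upper-quartile scaling, 0.037 with plain library sizes, 0.022 with the 5 CPM filter and 0.017 without the libraries that stood apart. LILRB2 ranged from -0.16 to 0.025, LILRB3 from -0.14 to 0.31 and LILRB4 from -0.040 to 0.012 on the log2 scale when single libraries were left out. PILRA kept its sign. Its adjusted p ranged from 0.00501 to 0.220.

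The filter at 5 CPM, which removes scarce genes, left 1 family relative, 3 other inhibitory receptors, 1 activating receptor, 7 ligands and 4 chromosome 19 genes higher. For the chromosome 19 genes, DESeq2 called 4 higher, the threshold of 0.01 left 3, and leaving out single libraries gave 3 to 6. Other scalings moved the median of all genes by at most 0.0532 on the log2 scale. The replicate numbers are not said to mark shared cultures, and deviations of same-numbered libraries correlated at 0.00289, 0.00917 and -0.0225. With the replicate block, 3 of the 10 receptors rose and 3 fell, as without it, and PILRA had an adjusted p of 0.0417. Of the 10 receptors, the scarce LILRB3 and PILRA had the largest SE, 0.34 and 0.21.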
